A study of Mus musculus with 14 samples.

Results

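Potassium channel genes were taken from the RNA-seq gene table by symbol, namely the symbols that begin with Kcn and name a pore-forming or auxiliary subunit by the usual letter and number. Of 24421 genes in the table, 96 matched, 24 of these had no count in any library, and 29 had at least 10 counts in 3 of the 6 RNA-seq libraries and are the members described here. The other 43 matched symbols had counts below that minimum, with at most 54 counts in all 6 libraries together. At the edge of the minimum, the third-highest count was 10 for Kcnip2, 11 for Kcnj13 and 13 for Kcna6 and Kcnn2 just inside it, and 9 for Kcnj1, 8 for Kcnip3 and 7 for Kcnj11 just outside it. The minimum was met only through blue cone libraries by 6 members (Kcnd3, Kcnf1, Kcng1, Kcnip2, Kcnj3 and Kcnn2) and only through rod libraries by 1 (Kcnj13), so that these 7 could enter only by a difference between the groups.

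All cells came from mice 8 weeks old on a C57BL/6 background and were isolated by FACS for GFP. Rods came from mice with the Nrl-eGFP reporter, in which the Nrl promoter, active in rods, drives GFP, and blue cones are the photoreceptors of mice that carry the same reporter and lack Nrl (Nrl-/-), the transcription factor that directs photoreceptor precursors to the rod fate. Blue cones are thus transformed rods and not native cones. Native green cones came from mice with the Opn1mw-GFP reporter, passed through the sorter a single time or again. RNA-seq was available for rods and blue cones (3 libraries each) and ATAC-seq, which marks accessible chromatin, for rods, blue cones and green cones of either sort, single or double (2 libraries of each). Each library came from the pooled retinas of several mice.

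Potassium channels set the resting potential of photoreceptors and shape their voltage response to light. Electrically silent subunits, such as the one encoded by Kcnv2, do not form channels alone but join partner pore subunits and alter their gating, and loss of KCNV2 in people causes a cone dystrophy with supernormal rod responses. Auxiliary subunits of the Kcnab, Kcne and Kcnip families bind pore subunits and change their trafficking or kinetics.

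Counts assigned to genes totalled 18376770 to 26312895 per RNA-seq library, and counts in the 53204 ATAC-seq elements of 200 bp totalled 1062403 to 5770075 per library, lowest in double-sorted green cones. Levels are given as CPM, counts per 1000000 counts of the library. Nrl itself was at 599, 845 and 745 CPM in the 3 rod libraries, against 34.5, 39.3 and 24.6 CPM in blue cones. All 6 rod markers were higher in rods and all 6 cone markers were higher in blue cones. Among markers of other cells, the 7 microglial genes summed to 3.04 to 5.56 CPM in the rod libraries against 21.0 to 44.7 CPM in the blue cone libraries, with 4 of 6 tested higher in blue cones. The 7 Müller glia genes summed to 47.1 to 71.2 CPM in the rod libraries against 36.0 to 50.5 CPM in the blue cone libraries, and 7 bipolar genes, without Cabp5, to 69.1 to 93.1 CPM and 51.0 to 93.2 CPM. Cabp5 was at 11.8 to 18.4 CPM in the rod libraries against 1325 to 1515 CPM in the blue cone libraries. The 7 ganglion cell genes summed to 2.13 to 3.56 CPM in the rod libraries against 7.86 to 10.9 CPM in the blue cone libraries, where 1 of 3 tested (Pou4f1) was higher in blue cones and Thy1 was at 0 in every library. The 4 horizontal cell genes summed to 0.405 to 1.28 CPM and 1.13 to 3.55 CPM, with 1 of 2 tested (Onecut2) higher in blue cones, and the 6 endothelial and pericyte genes to 8.07 to 11.996 CPM and 2.68 to 3.67 CPM, with 1 of 3 tested (Pecam1) higher in rods. The 7 amacrine genes summed to 108 to 128 CPM in the rod libraries against 69.3 to 83.8 CPM in the blue cone libraries, most of it from Slc6a9, with neither of 2 tested past the threshold and Slc32a1 at 0 throughout. The part of these cells in the members' values was not tested. In bulk libraries fewer cells of a type and less RNA per cell cannot be told apart.

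The comparison of rods with blue cones addressed which potassium channel genes differ between photoreceptors with and without Nrl. Of 28 members tested by edgeR's quasi-likelihood fit (glmTreat) against a log2 fold change of 1, 2 were higher in rods (among them Kcnv2), 14 were higher in blue cones, and 12 did not pass at a Benjamini-Hochberg adjusted p under 0.05 over all 12327 genes tested. Over all genes tested, 20.1% passed, 6.88% higher in rods and 13.3% higher in blue cones. The 14 were Kcna5, Kcnab1, Kcnab2, Kcnd3, Kcne2, Kcnf1, Kcng1, Kcng4, Kcnh6, Kcnj3, Kcnk3, Kcnma1, Kcnn1 and Kcnn2, of which 5 met the count minimum only through blue cones, so that their direction was fixed by that minimum. Of the 22 members with 10 counts in a library of each group, 9 were higher in blue cones, 2 were higher in rods and 11 did not pass. The median log2 fold change, rods over blue cones, was -1.24 over these 22 and -1.66 over all 28 tested, against 0.01 over all genes tested, and is a description of the members that met the minimum. Tested against no change, 5 members were higher in rods and 17 in blue cones, where 29.5% and 31.4% of all genes were. All 3 blue cone libraries lay above all 3 rod libraries for 17 of the 29 members and below them for 5, where 33.8% and 33.2% of all genes tested did so. These 17 include all 6 members that met the minimum only through blue cones, and these 5 include Kcnj13, which met it only through rods. The side of these members was fixed by the minimum, and Kcnip2 among them was not tested. The others of them were also among the 17 and the 5 against no change. Leaving out 1 library gave 1 to 4 members higher in rods (4 without blue cone library 1) and 12 to 15 higher in blue cones. P-values measure the spread between libraries, which the study names biological replicates. The sample titles do not say whether any of them shared a sort or day. RNA integrity was lower in the rod samples by the study's own record, a difference whose part in these values was not tested.

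**Figure D1:**
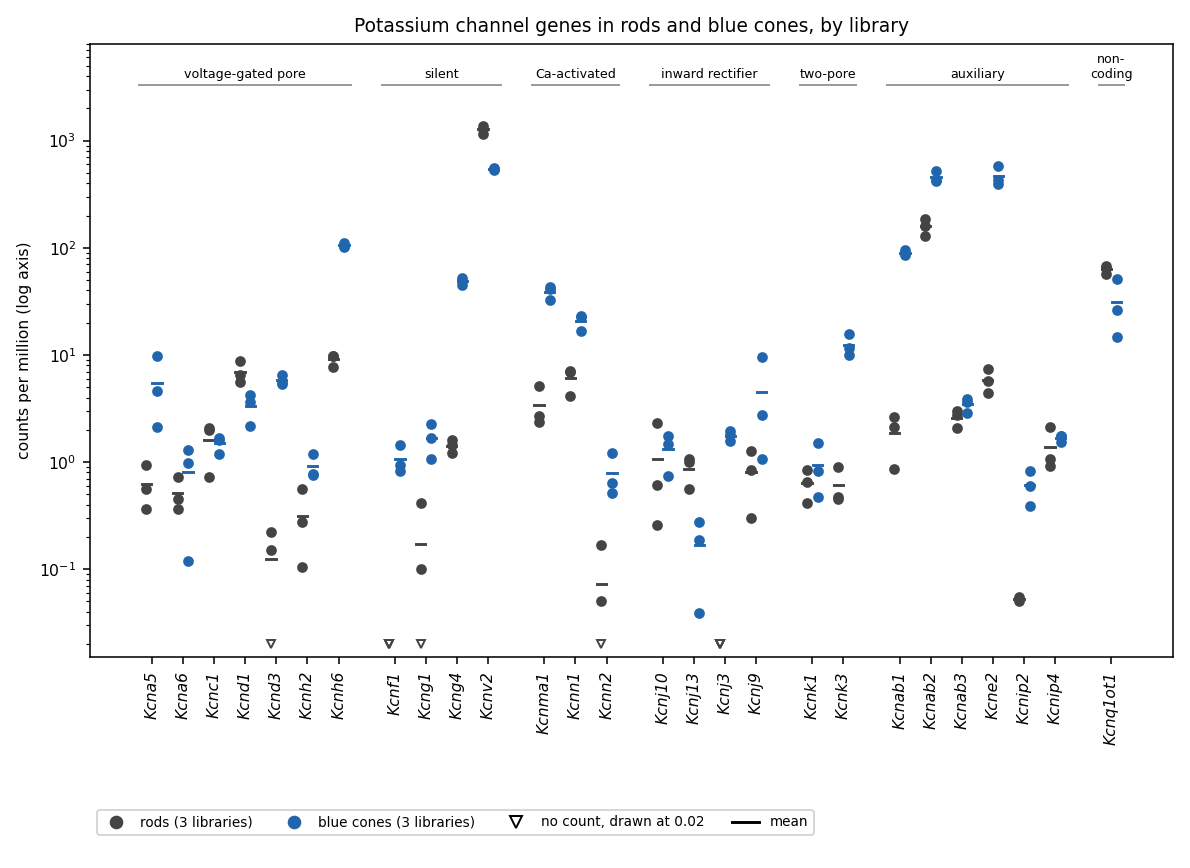
Level in CPM (log axis) of the potassium channel genes described, in each RNA-seq library, grouped by subunit class, with rods in grey, blue cones in blue and a bar at the mean of 3 libraries. Kcnv2 had the highest level plotted in rods, and Kcnf1 and Kcnj3 had no count in any rod library.

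Kcnv2 (NCBI gene 240595, chr19:27322061-27337179, plus strand, GRCm38), which encodes a silent subunit, was at 1157, 1292 and 1381 CPM in the rod libraries against 559, 534 and 538 CPM in the blue cone libraries. The groups did not overlap, and the mean was 2.35-fold higher in rods. The log2 fold change was 1.23 (SE 0.12), and its adjusted p from edgeR was 0.0473, close to the threshold. The call was lost under 7 of 13 alternatives, among them DESeq2 (adjusted p = 0.331) and leaving out rod library 2 or 3 or blue cone library 2 or 3 (edgeR adjusted p of 0.0664, 0.158, 0.117 and 0.0873). The direction held in all of them, since the log2 fold change ranged from 1.18 to 1.31. Against no change, the adjusted p was 3.24e-06.

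The other 3 silent subunits among the members were higher in blue cones. For Kcng1 and Kcnf1 the count minimum was met only through blue cones, so that their direction was fixed by it. Kcng4 (chr8:119623854-119635680), another silent modifier of voltage-gated channels, was at 1.21, 1.62 and 1.45 CPM in the rod libraries against 44.8, 52.8 and 48.6 CPM in the blue cone libraries, a 34.1-fold difference of means (log2 fold change -5.09, SE 0.18, edgeR adjusted p = 1.04e-09). Kcng1, of the same family, had 2, 8 and 0 counts in the rod libraries against 27, 43 and 60 counts in blue cones. Its log2 fold change was -3.21 (SE 0.73, edgeR adjusted p = 0.0154), and the call was lost without rod library 1 or rod library 3 (edgeR adjusted p of 0.0888 and 0.0586). Kcnf1 had no count in the 3 rod libraries and 24, 37 and 22 counts in blue cones, so that its level in blue cones was higher by at least 6.76-fold when each rod library is set at the limit of 3 counts. Its adjusted p in edgeR was 0.000631. Per length, the mean level in blue cones was 107 RPKM (reads per kilobase of exon, scaled to library size) for Kcnv2, 12.6 for Kcng4, 0.395 for Kcng1 and 0.224 RPKM for Kcnf1.

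Of 5 auxiliary subunits tested, 3 were higher in blue cones and 2 did not pass. Kcne2 (NCBI gene 246133, chr16:92292389-92298133, plus strand) encodes a single-pass subunit that associates with several voltage-gated pores. It was at 5.67, 4.38 and 7.34 CPM in the rod libraries against 395, 429 and 576 CPM in the blue cone libraries, an 80.5-fold difference of means. Its log2 fold change was -6.33 (SE 0.23, edgeR adjusted p = 8.42e-10). Kcnab1 (chr3:64949212-65378225), a cytoplasmic beta subunit of Kcna-type channels, was at 0.860, 2.14 and 2.62 CPM in the rod libraries against 85.6, 89.5 and 94.9 CPM in the blue cone libraries (log2 fold change -5.60, SE 0.26, edgeR adjusted p = 1.14e-08). The related Kcnab2 was at 128, 186 and 161 CPM in the rod libraries against 428, 419 and 523 CPM in the blue cone libraries (log2 fold change -1.53, SE 0.15, edgeR adjusted p = 0.00316). These 3 calls held under every alternative fitted.

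The remaining auxiliary members were low in both groups. Kcnab3, the third beta subunit, was at 2.08 to 2.97 CPM in the rod libraries against 2.84 to 3.91 CPM in the blue cone libraries, and the calcium-binding subunit gene Kcnip4 at 0.911 to 2.14 CPM and 1.54 to 1.76 CPM. The libraries of the groups overlapped for both, and neither passed the test. Exons of Kcnip4 are overlapped by a gene on the opposite strand. Kcnip2, another calcium-binding subunit, had 1 count in each rod library and 21, 10 and 16 counts in blue cones. It was not kept by edgeR's expression filter and, with the count minimum of the members as the filter, had an adjusted p of 0.0102 in edgeR. Kcnip2 met that minimum only through blue cones, so that its direction was fixed by the filter and this value adds no support.

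Among 9 voltage-gated pore subunits, 3 were higher in blue cones. Kcnh6 (chr11:106008044-106035595), of the ether-a-go-go-related family, was at 9.77, 7.72 and 9.85 CPM in the rod libraries against 105, 102 and 110 CPM in the blue cone libraries (log2 fold change -3.54, SE 0.14, edgeR adjusted p = 4.70e-09). Kcna5, a Shaker-related subunit, was at 0.557, 0.365 and 0.946 CPM in the rod libraries against 2.13, 4.61 and 9.81 CPM in the blue cone libraries (log2 fold change -3.15, SE 0.57, edgeR adjusted p = 0.00377), so that its blue cone libraries spread widely. Kcnd3, of the A-type family, had 3, 0 and 4 counts in the rod libraries against 141, 138 and 174 counts in blue cones (log2 fold change -5.50, SE 0.52, edgeR adjusted p = 9.99e-06). Kcnd3 met the count minimum only through blue cones, so that its direction was fixed by that minimum. The antisense gene Kcnd3os overlaps its exons, and since the cDNA kit does not mark strand, reads of the pair cannot be told apart.

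Of the voltage-gated pore subunits, 5 did not pass, and the members named in this and the next paragraphs without a call were chosen after their values were seen. Kcnd1, the other A-type member, lay the opposite way to Kcnd3, at 5.62 to 8.77 CPM in the rod libraries against 2.17 to 4.18 CPM in the blue cone libraries, with no overlap (log2 fold change 1.06, SE 0.29). It passed only against no change, with an adjusted p of 0.00772 in edgeR. Kcnh2, the relative of Kcnh6 known for its cardiac current, was at 0.104 to 0.557 CPM in the rod libraries against 0.750 to 1.20 CPM in the blue cone libraries. Kcna6 had levels of 0.365 to 0.723 CPM in the rod libraries against 0.118 to 1.31 CPM in the blue cone libraries, and Kcnc1 of 0.730 to 2.08 CPM and 1.18 to 1.68 CPM, and the groups overlapped for both.

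All 3 calcium-activated members were higher in blue cones, but the direction of Kcnn2 was fixed by the count minimum, which it met only through blue cones. Kcnma1 (NCBI gene 16531, chr14:23292288-24005110, minus strand), the pore subunit of the large-conductance channel opened by calcium and voltage, was at 2.68, 2.35 and 5.12 CPM in the rod libraries against 40.9, 32.7 and 43.2 CPM in the blue cone libraries. This was an 11.5-fold difference of means (log2 fold change -3.53, SE 0.26, edgeR adjusted p = 1.84e-06). Of the small-conductance family, Kcnn1 was at 4.10, 7.10 and 6.90 CPM in the rod libraries against 16.9, 23.1 and 22.7 CPM in the blue cone libraries (log2 fold change -1.79, SE 0.23, edgeR adjusted p = 0.00309). Kcnn2 had 1, 0 and 3 counts in the rod libraries against 13, 31 and 17 counts in blue cones (log2 fold change -3.38, SE 0.81, edgeR adjusted p = 0.0196). Its call was lost with DESeq2 (adjusted p = 0.167) and without rod library 1, rod library 2 or blue cone library 2 (edgeR adjusted p of 0.106, 0.0995 and 0.0899). Exons of 2 genes on the opposite strand overlap those of Kcnn2.

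Of 4 inward rectifiers, 1 passed the test. Kcnj3, which encodes a G protein-gated subunit, had no count in rods and 49, 46 and 42 counts in blue cones, so that the blue cone level was higher by at least 11.2-fold at the limit of 3 counts per rod library (edgeR adjusted p = 0.000109). Since Kcnj3 met the count minimum only through blue cones, its direction was fixed by that minimum. Kcnj9, a subunit of the same G protein-gated group, had 6, 16 and 23 counts in the rod libraries against 27, 70 and 256 counts in blue cones. Blue cone library 3 held most of its counts, and the test gave an adjusted p of 0.0688 in edgeR. The same library had the highest Kcna5 and the highest microglial sum (44.7 against 21.0 and 21.3 CPM). Its sum of 7 bipolar genes, without Cabp5, was also the highest (93.24 against 50.96 and 58.15 CPM). Of the bipolar genes, Prkca was lowest there (5.76 against 10.2 and 9.29 CPM), and Cabp5 was highest in blue cone library 2. Without blue cone library 3, the log2 fold change was -2.44 for Kcna5, which kept its call, and -1.24 (edgeR adjusted p = 0.555) for Kcnj9. Kcnj9 passed the test under other alternatives, with edgeR adjusted p of 0.00738 with the replicate number as a block, 0.00413 without blue cone library 1 and 0.017 with no filter on low counts. The part of those cells in these values was not tested.

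Kcnj13, an inward rectifier best known from the retinal pigment epithelium, lay higher in rods, with 11, 19 and 19 counts against 7, 1 and 5 (log2 fold change 2.33, SE 0.64, edgeR adjusted p = 0.0536). Kcnj13 met the count minimum only through rods, so that its direction was fixed by that minimum. Without blue cone library 1 it passed, with a log2 fold change of 2.87 and an adjusted p of 0.0326 in edgeR, and over all alternatives the adjusted p ranged from 0.00748 to 0.596. The sum of the 5 pigment epithelium markers was 5.97, 3.50 and 1.39 CPM in rods against 1.42, 1.33 and 1.91 CPM in the blue cone libraries, so that the groups overlapped, and the single one tested did not pass. Their part in the level of Kcnj13 was not tested. Kcnj10, the main inward rectifier of Müller glia, had 12, 5 and 42 counts in the rod libraries against 44, 19 and 39 counts in blue cones, with overlap. Its highest rod library, the third, also had the highest sum of Müller glia markers among rods (71.2 against 47.1 and 55.6 CPM). Among blue cones it was the other way, since library 2, with the fewest Kcnj10 counts, had the highest sum (50.5 against 36.6 and 36.0 CPM). A link between these markers and Kcnj10 was not tested.

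Among tandem-pore leak channels, Kcnk3, which encodes an acid-sensitive background channel, was higher in blue cones. It had 9, 9 and 16 counts in the rod libraries against 399, 298 and 269 counts in blue cones, with mean levels of 0.605 ± 0.247 CPM and 12.5 ± 2.93 CPM (SD, n = 3). The log2 fold change was -4.37 (SE 0.32, edgeR adjusted p = 1.33e-06), and Gm9899 overlaps its exons on the opposite strand. Kcnk1 was at 0.417 to 0.835 CPM in the rod libraries against 0.474 to 1.497 CPM in the blue cone libraries, with overlap. The non-coding member Kcnq1ot1, an imprinted antisense transcript of the Kcnq1 locus, was at 67.4, 57.1 and 64.7 CPM in the rod libraries against 51.4, 26.5 and 14.6 CPM in the blue cone libraries. It did not pass (log2 fold change 1.03, SE 0.33), but it passed without blue cone library 1, with a log2 fold change of 1.63 and an adjusted p of 0.00488 in edgeR, and against no change (adjusted p = 0.0161). Without blue cone library 3 its log2 fold change was 0.69. It overlaps Kcnq1 on the opposite strand.

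Levels were compared between genes per length, as CPM divided by the kilobases of merged exons (RPKM). Kcnv2 led in rods at 251.5 ± 22.2 RPKM, while Kcnab2 was at 40.8 ± 7.46 and Kcne2 at 3.27 ± 0.838 RPKM (SD, n = 3), and these 3 levels were separated by more than their spread. In blue cones the levels were Kcne2 at 264 ± 54.4, Kcnab2 at 117 ± 14.7, Kcnv2 at 107 ± 2.58, Kcnh6 at 23.8 ± 0.954 and Kcnab1 at 21.7 ± 1.13 RPKM. In blue cones the libraries of Kcnab2 (108 to 134 RPKM) and Kcnv2 (105 to 110 RPKM) overlapped, and those of Kcnh6 (23.0 to 24.9 RPKM) and Kcnab1 (20.6 to 22.9 RPKM) lay next to each other without overlap. Kcnv2 made up 63.6% to 65.8% of the summed RPKM of the 28 coding members in rods and 15.5% to 19.8% in blue cones. That sum was 346 to 413 RPKM in the rod libraries and 556 to 685 RPKM in the blue cone libraries, so that a share also depends on the total. Kcne2 alone went from 0.618% to 1.00% in rods to 40.2% to 47.5% in blue cones.

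**Figure D2:**
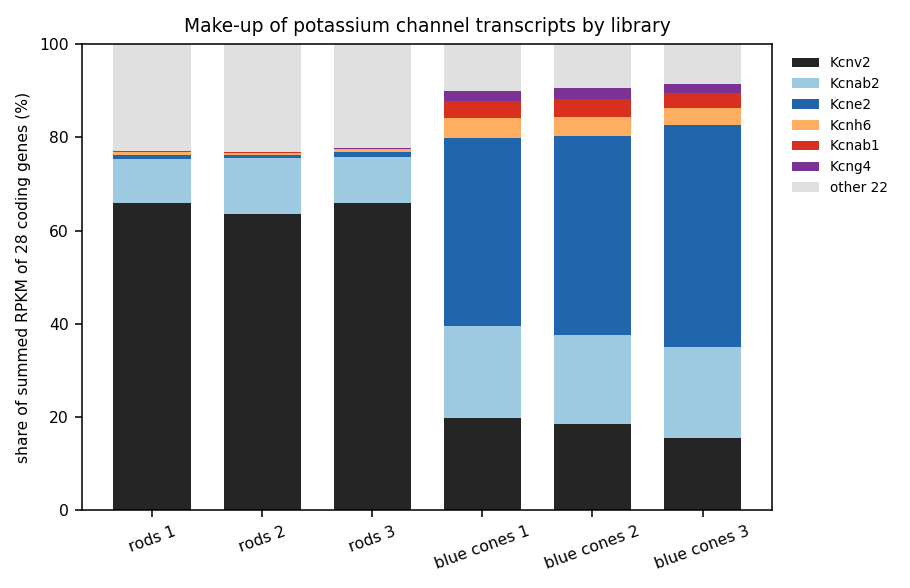
Share (%) of the summed RPKM of 28 coding potassium channel genes taken by 6 named genes and the other 22, in each of 6 RNA-seq libraries. Kcnv2 (dark) holds 63.6% to 65.8% in rods, and Kcne2 (blue) holds 40.2% to 47.5% in blue cones.

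Genes whose products work with potassium channels were also counted. Of 17 partner and related channel genes, 10 were tested, 0 were higher in rods and 3 were higher in blue cones. For these and the pump genes below, the shares over all genes tested were 6.88% higher in rods and 13.3% higher in blue cones. With so few genes in each list, the counts are a description only. Amigo1, an adhesion protein that associates with potassium channels, was at 2.58, 3.44 and 2.89 CPM in the rod libraries against 11.2, 10.0 and 13.7 CPM in the blue cone libraries (log2 fold change -1.97, SE 0.22, edgeR adjusted p = 0.000776). The lysosomal potassium channel gene Tmem175 and the sulfonylurea receptor gene Abcc8 were the others, with log2 fold changes of -1.46 and -3.81. Of 8 sodium-potassium pump genes, 6 were tested and Atp1b2 was higher in blue cones, at 2054 to 3092 CPM in the rod libraries against 12411 to 14546 CPM in the blue cone libraries (log2 fold change -2.33, SE 0.18, edgeR adjusted p = 9.47e-06).

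In ATAC-seq, 150 of the 53204 elements had a member as the gene with the nearest RefSeq start site. In the test of rods against both cone types (blue and double-sorted green cones as a single level), 144 were tested, of which 5 were more open in rods and 62 in cones at an adjusted p under 0.1 in edgeR. Over all 51563 elements tested, 3.98% were more open in rods and 18.1% in cones, against 3.47% and 43.1% of the elements of members. Without rod library 1 the counts were 0 and 34, and without rod library 2 they were 2 and 39. In the test of rods against blue cones alone, 131 were tested, with 11 more open in rods and 65 in blue cones, which is 8.40% and 49.6% against 6.38% and 21.0% of all elements. The median log2 fold change of the members' elements was -1.65 and -1.60 in these comparisons, also with elements without a rod read at their bound, against -0.13 and -0.07 over all elements tested. The share depended on how elements were assigned. With any element within 100 kb of a member's start site, whatever its nearest gene, 19.2% of 318 were more open in cones than in rods and 20.8% of 303 more open in blue cones, close to the shares of all elements. In the direction of rods the shares were 4.09% and 6.60%. Without the elements of Kcnma1, 34.4% and 41.1% of the nearest elements passed toward cones and toward blue cones.

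Elements were also counted by the RNA call of their gene. Near the 14 genes higher in blue cones, 54 of 77 elements tested were more open in blue cones, against 2 toward rods. The shares over all elements tested were 21.0% toward blue cones and 6.38% toward rods. Kcnma1 alone supplied 19 of the 54. At least 1 element more open in blue cones was found for 12 of the 14 genes. Such an element was also found for 6 of 11 genes with elements that did not pass the RNA test. The same held for 1 of the 2 genes higher in rods and for Kcnip2, which was not tested. This share per gene was not computed over all genes. The count minimum was met only through blue cones by 5 of the 14. Near the other 14 members with elements, whose RNA was higher in rods, did not pass or was not tested, 9 of 54 were more open in rods and 11 in blue cones. Among these, the 2 genes higher in rods had 14 elements tested, of which 6 passed toward rods and 1 toward blue cones. Of 98 elements tested near 42 matched genes under the count minimum, 41 were more open in blue cones and 5 went toward rods.

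**Figure D3:**
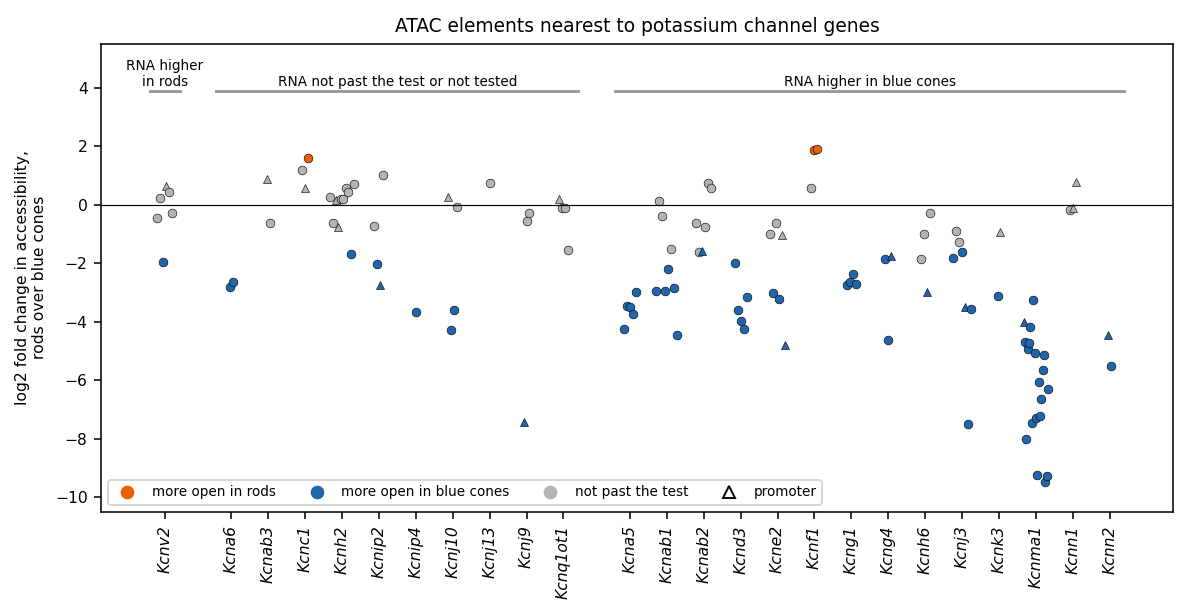
Log2 fold change in accessibility, rods over blue cones, of the tested elements of the members shown, arranged by the gene with the nearest start site and by that gene's RNA call. Orange elements were more open in rods, blue elements in blue cones, grey did not pass, and triangles are promoter elements. All 19 elements of Kcnma1 lie below 0, and for elements without a rod read the fitted value depends on the prior count.

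Kcnv2 had 6 elements, and none passed against both cone types. Its promoter element was at 80.4 and 76.1 CPM in rods, with 41.0 and 57.0 CPM in blue cones, and with 56.0 and 26.1 CPM in double-sorted green cones, so that the rod libraries lay above the others, but its log2 fold change against blue cones was 0.62 (SE 0.14) and the adjusted p was 1.00 in edgeR. The single element past the test against blue cones lay at -36.7 kb from the start site and was more open in blue cones, at 8.28 and 4.99 CPM against 0.833 and 2.45 CPM in rods (edgeR adjusted p = 0.0709).

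Kcne2 had 7 elements. The element over its upstream start site (chr16:92292239-92292438) was at 0.833 and 1.13 CPM in rods, with 32.7 and 24.3 CPM in blue cones, 29.5 and 37.7 CPM in double-sorted green cones and 27.1 and 22.8 CPM in single-sorted green cones. Its log2 fold change was -4.90 against both cone types (SE 0.44, edgeR adjusted p = 0.000206) and -4.80 against blue cones (SE 0.40, edgeR adjusted p = 3.34e-10). Between its start sites (chr16:92294325-92294524) an intronic element was at 1.25 and 0.753 CPM in rods, with 10.3 and 8.85 CPM in blue cones, and with 15.5 and 11.7 CPM in double-sorted green cones. At the second annotated start site the element was open in rods too, at 20.4 and 16.4 CPM against 32.3 and 40.4 CPM in the blue cone libraries, and did not pass. At an element at -101.5 kb from the start site, green cones stood above blue cones. The libraries were at 0.208 and 0.377 CPM in rods, against 1.24 and 3.18 CPM in blue cones, 17.9 and 22.5 CPM in double-sorted green cones and 14.9 and 21.0 CPM in single-sorted green cones. This difference between the cone types was not tested.

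**Figure D4:**
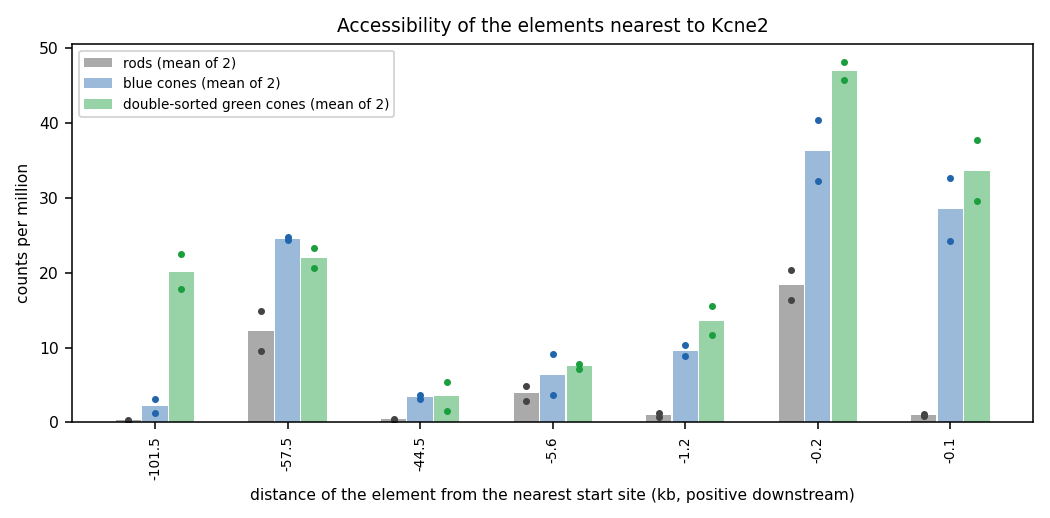
Accessibility (CPM, bars are means of 2 libraries and points the libraries) of the elements nearest to Kcne2, ordered by distance from the nearest start site in kb. At the upstream start of Kcne2 rods were at 0.833 and 1.13 CPM against 24.3 to 37.7 CPM in cones.

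Kcnma1, which spans a long stretch of chromosome 14, had 24 elements, the most of any member, and 23 of them lay within the gene between 95.8 and 449.7 kb downstream of the start site. Of 22 tested against both cone types, 20 were more open in cones, and of 19 tested against blue cones all 19 were more open in blue cones. No read was found in either rod library at 10 of the 24 elements, and no element exceeded 1.13 CPM in a rod library. Summed over the 24 elements, the libraries held 4.17 and 5.46 CPM in rods (20 and 29 reads), 214 and 220 CPM in blue cones, 402 and 256 CPM in double-sorted green cones and 232 and 288 CPM in single-sorted green cones. At chr14:23560179-23560378, with 0 reads in rods, blue cones were at 21.9 and 14.98 CPM, at least 31.0-fold higher at a limit of 3 reads per rod library. The neighbouring element at 441.7 kb had no rod read and reached 23.2 and 19.1 CPM in blue cones, at least 35.5-fold higher. The promoter element was sparse, with 0 and 0.377 CPM in the rod libraries against 4.14 and 3.18 CPM in the blue cone libraries. The RNA of Kcnma1 in rods was detected all the same, at 2.35 to 5.12 CPM.

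**Figure D5:**
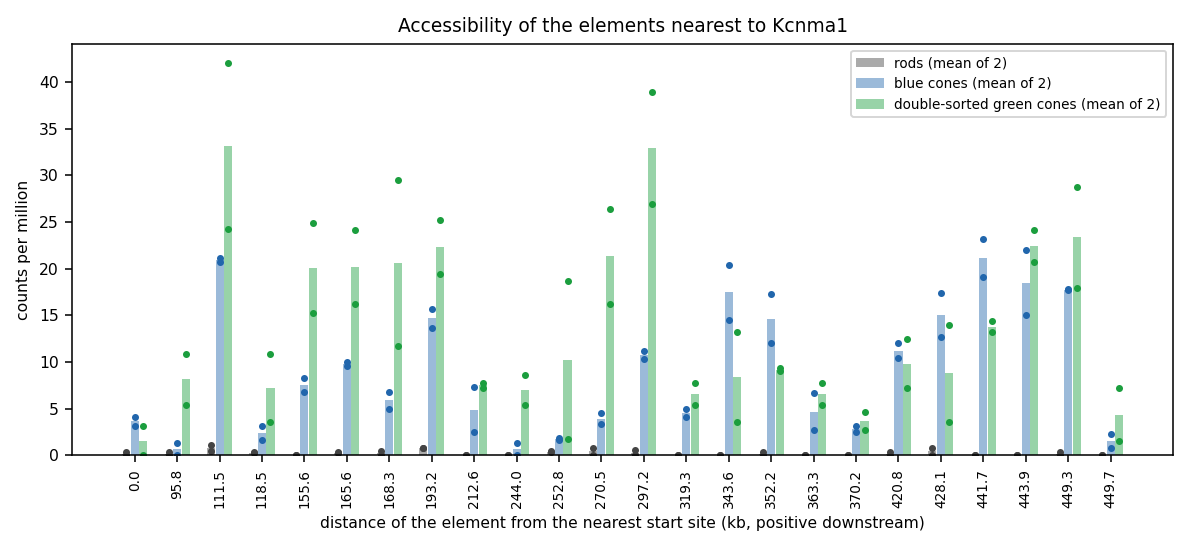
Accessibility (CPM, bars are means of 2 libraries and points the libraries) of the 24 elements nearest to Kcnma1, ordered by distance from the start site in kb. Rod libraries stay at or below 1.13 CPM throughout, and both cone types carry signal at most elements up to 449.7 kb downstream.

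Several other genes higher in blue cones carried few accessible elements in rods. Of Kcna5 and Kcnd3, all 5 tested elements each, and of Kcnn2 both, were more open in blue cones than in rods. Kcnab1 had an intronic element at chr3:64994690-64994889 that was at 1.25 and 1.51 CPM in rods, with 32.7 and 29.3 CPM in blue cones, and with 38.1 and 32.3 CPM in double-sorted green cones (rods over cones, log2 fold change -4.53, edgeR adjusted p = 0.000184). In the same gene an intronic element 15.5 kb from a start site was open throughout, at 68.3 and 63.4 CPM in the rod libraries against 60.4 and 59.9 CPM in the blue cone libraries. The promoter element of Kcnh6 was at 1.25 and 1.13 CPM in the rod libraries against 10.3 and 8.85 CPM in the blue cone libraries (rods over blue cones, edgeR adjusted p = 0.000711). That of Kcng4 was at 15.8 and 16.4 CPM in rods, with 54.6 and 52.7 CPM in blue cones, and with 21.0 and 51.2 CPM in double-sorted green cones, and passed against blue cones alone. At Kcnk3 the promoter element did not pass (6.25 and 7.91 CPM against 14.9 and 12.3 CPM), while an element at -7.26 kb from the start site was at 1.67 and 2.64 CPM in the rod libraries against 17.4 and 20.4 CPM in the blue cone libraries.

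RNA and accessibility did not point the same way at every gene. Kcnf1, with no RNA count in rods, had 2 elements 33.5 and 35.8 kb downstream of its start that were more open in rods. At chr12:17141039-17141238 rods were at 28.3 and 26.7 CPM, blue cones at 6.62 and 7.72 CPM and double-sorted green cones at 4.66 and 1.80 CPM (rods over cones, log2 fold change 2.26, SE 0.40, edgeR adjusted p = 0.0131). None of the 3 elements of Kcnn1 passed. Among genes without an RNA call, the promoter element of Kcnj9 had no read in either rod library, against 5.80 and 4.54 CPM in blue cones, while double-sorted green cones were at 14.0 and 7.19 CPM, and a pair of intronic elements of Kcnj10 was more open in cones. An element of Kcnc1 11.6 kb downstream of the start was more open in rods, at 19.8 and 28.6 CPM against 7.45 and 8.40 CPM in the blue cone libraries. These elements of Kcnj9, Kcnj10 and Kcnc1 were chosen after their values were seen. Kcnd1 had no element.

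Promoter and distal elements were counted separately. An element counts as a promoter when its centre lies from 1000 bp before a start site to 100 bp after it, and 24 of the 150 were of this kind. Against blue cones, 2 of 22 tested promoter elements were more open in rods and 9 in blue cones, while of 109 distal elements 9 were more open in rods and 56 in blue cones. Over all elements tested, promoter and distal together, 6.38% were more open in rods and 21.0% in blue cones. The shares of each class over all elements were not computed, so these counts cannot be set against their own class. Of the elements more open in blue cones, 19 were nearest to Kcnma1, which has 1 promoter element. The difference between the classes was not tested.

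The sequences of 5 elements that carry these differences are given below from the plus strand of GRCm38 (RefSeq), 1 per gene and outside annotated exons. Kcnf1 supplies an element more open in rods, and Kcne2, Kcnma1, Kcnab1 and Kcnk3 elements more open in cones. Each is in lower case, and capitals mark any match, on either strand, to 5 motifs bound by photoreceptor transcription factor families: CTAATCC (homeodomain proteins such as CRX), TAATTA (other homeodomain proteins), CATATG (basic helix-loop-helix), AGGTCA (nuclear receptors) and TGCTGAC (a MAF recognition site, as for NRL).
Kcnf1 (chr12:17141039-17141238, 35.8 kb downstream of the start): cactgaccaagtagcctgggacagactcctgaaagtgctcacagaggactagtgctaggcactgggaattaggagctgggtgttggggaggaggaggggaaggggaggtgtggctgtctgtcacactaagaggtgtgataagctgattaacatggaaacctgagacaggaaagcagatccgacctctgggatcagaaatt
Kcne2 (chr16:92294325-92294524, at -1.19 kb from its second start site): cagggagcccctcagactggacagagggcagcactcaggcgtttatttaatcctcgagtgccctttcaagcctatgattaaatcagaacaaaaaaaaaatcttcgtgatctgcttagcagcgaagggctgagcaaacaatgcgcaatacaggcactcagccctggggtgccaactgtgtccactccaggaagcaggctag
Kcnma1 (chr14:23560179-23560378, 443.9 kb downstream): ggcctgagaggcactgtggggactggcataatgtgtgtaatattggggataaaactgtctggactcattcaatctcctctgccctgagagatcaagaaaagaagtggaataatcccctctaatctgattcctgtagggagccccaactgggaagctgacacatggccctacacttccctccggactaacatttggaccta
Kcnab1 (chr3:64994690-64994889, 45.6 kb downstream): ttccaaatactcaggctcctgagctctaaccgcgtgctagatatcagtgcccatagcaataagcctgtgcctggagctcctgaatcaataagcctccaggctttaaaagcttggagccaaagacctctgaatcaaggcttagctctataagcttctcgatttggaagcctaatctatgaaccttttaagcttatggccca
Kcnk3 (chr5:30580809-30581008, at -7.26 kb from the start): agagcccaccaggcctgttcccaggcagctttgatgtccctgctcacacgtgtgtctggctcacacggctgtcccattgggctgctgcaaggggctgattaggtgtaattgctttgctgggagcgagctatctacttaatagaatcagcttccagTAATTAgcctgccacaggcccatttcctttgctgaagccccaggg

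Only the element of Kcnk3 held a match among these 5, to TAATTA, and CTAATCC and TAATTA can overlap in the letters TAAT. Across the 150 elements of members, CTAATCC was present in 7.33% and in 7.61% of all 53204 elements, TAATTA in 6.00% and 4.71%, CATATG in 5.33% and 2.50%, AGGTCA in 11.3% and 14.9%, and TGCTGAC in 3.33% and 3.98%. Among the 65 elements more open in blue cones, CTAATCC was present in 6 and TAATTA in 5, and among the 11 more open in rods CTAATCC and TGCTGAC were present in 0. A match to such short words is a description of the sequence, and its absence says nothing about the factor.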

How the data were processed

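RNA-seq and ATAC-seq of FACS-isolated mouse photoreceptors were used as the deposited tables of raw counts per gene and raw counts per 200 bp element. The authors aligned RNA reads with STAR 2.4.2a to GRCm38 and counted them per RefSeq gene with HTSeq 0.6.1p1. The strand setting was not given in the sources used here. They aligned ATAC reads with Bowtie2 2.2.3, removed duplicates with Picard 1.121, kept short inserts, called peaks with MACS2 2.1.0, merged them across cell types and counted reads with bedtools 2.24.0. In RNA-seq, 41.3% to 49.2% of the reads had no gene and were left out of the totals. The deposited peak lists were not used, because they pool replicates.

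Each table was fitted whole in edgeR 4.0.16 (R 4.3.3) with filterByExpr, TMM scaling, glmQLFit and glmTreat against a log2 fold change of 1, with Benjamini-Hochberg adjusted p under 0.05 for RNA and 0.1 for ATAC. CPM use the TMM-scaled library sizes. Elements were assigned to the gene with the nearest RefSeq start site. Genes to be named were those past the RNA test, the 6 with the highest RPKM and the 3 with the smallest change at a mean of 10 CPM or more. Not all of them are reported here by name, and other members without a call were named after their values were seen. DESeq2 1.42.0, other scalings and filters, no fold threshold, a replicate block, thinned libraries and leaving out each library were alternatives. The fits were tested on simulated data. Libraries total enough counts that a limit of 3 counts is 0.112 to 0.167 CPM in RNA-seq, which covers counting error only. The members, lists and tests were chosen with earlier results of these data known, and some matching symbols, related genes and markers are not reported here by name.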

Additional observations from a re-analysis of the deposited data

Results flagged for a closer look

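At 2 elements the blue cone and the double-sorted green cone libraries lay on opposite sides of the rod libraries, and the difference between the cone types was not tested. The element at -48.3 kb from the start site of Kcnv2 was at 6.87 and 5.27 CPM in rods, with 7.45 and 8.85 CPM in blue cones, and with 3.11 and 3.59 CPM in double-sorted green cones, so that the mean of blue cones was 2.43 times that of double-sorted green cones. Single-sorted green cones were at 3.42 and 5.47 CPM there. The element at -27.2 kb from the start site of Kcnip2 was at 2.71 and 1.69 CPM in rods, with 2.90 and 4.09 CPM in blue cones, and with 0.777 and 0 CPM in double-sorted green cones, a ratio of 8.98 between the cone types that rests on few reads.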

How the results depend on the processing

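None of the 28 members tested, nor any of the elements followed one by one (up to 66 against blue cones and 73 against both cone types, which leaves out some called elements), reversed a called direction under the alternatives that could be fitted to it. The 14 members higher in blue cones numbered 12 to 17 under every alternative, and the 2 higher in rods became 1 with the size factors of DESeq2, 1 with DESeq2 itself, 5 against no change and 1 to 4 when a library was left out. The labels do not say whether equal replicate numbers pair the RNA-seq libraries. Correlations of deviations were 0.127, 0.049 and 0.023 for the same number and -0.118 to 0.084 for different numbers. So few libraries cannot decide whether they are paired. With the number as a replicate block 1 member was higher in rods and 15 in blue cones, and 11 elements were more open in rods and 62 in blue cones.

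Of the elements tested against both cone types, the 5 more open in rods became 2 with DESeq2, 19 against no change, 13 with any element within 100 kb and 0 to 7 when a library was left out, and the 62 more open in cones became 34 to 67 when a library was left out. Against blue cones, the 11 more open in rods became 5 with DESeq2, 25 against no change, 20 within 100 kb and 8 to 11 without a library, and the 65 more open in blue cones 44 to 64. With the number of processed reads as library size, an alternative chosen after seeing the data, 9 and 50 elements were called against both cone types and 12 and 44 against blue cones. The median of all elements moved to 0.34 and 0.51 and that of the members' elements to -1.16 and -0.50, while calls over all elements, toward rods and toward cones, went from 2054 and 9340 to 3518 and 6424 against both cone types and from 3151 and 10377 to 4028 and 5972 against blue cones. With DESeq2, 12 of the 73 elements followed lost their call against both cone types, and 21 of 66 against blue cones. Members with fewer than about 10 counts per library, such as Kcng1 and Kcnn2 in rods, are limited by depth.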
